A study of Saccharomyces cerevisiae with 4 samples.

Results

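The kinetochore is the protein assembly that joins each centromere to a spindle microtubule, and the spindle checkpoint is the signalling system that delays anaphase until every chromosome is attached. The 46 genes described here encode the inner and outer kinetochore, the DASH complex, the checkpoint proteins and the chromosomal passenger complex of Saccharomyces cerevisiae. They were chosen by name from these complexes, and all 46 had a probe set among the 5449 S. cerevisiae genes measured. Each was represented by 1 probe set, so no choice between probe sets was needed.

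The arrays came from cultures of the haploid strain W1588-4c, kept at 30 °C in a synthetic complete medium that held 2% glucose and grown to an optical density of about 1. In the allyl alcohol group cells received 0.4 mM allyl alcohol for 3 h, and the untreated group received none. Each group had 2 arrays, labelled replicates 1 and 2 and described by the submitters as independent experiments. Both groups were of mating type a (MATa) and carried RAD5+ with the alleles ura3-1, trp1-1, ade2-1, can1-100, leu2-3, 112 and his3-11, 15, so every result applies to this single strain. The sources used here give no matching time for the untreated cultures, and culture time and treatment cannot be told apart.

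In budding yeast 1 microtubule binds each kinetochore. The centromeric nucleosome and the CBF3 complex mark the centromere, the Ctf19 assembly and the MIND complex build outward from it, and the Ndc80 and DASH complexes hold the microtubule. The Aurora kinase Ipl1 releases faulty attachments, and Mad and Bub proteins signal from unattached kinetochores to restrain the anaphase-promoting complex. Allyl alcohol is oxidised by yeast alcohol dehydrogenases to acrolein, a reactive aldehyde. The comparison of the labels asks which transcripts differ after this exposure.

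Arrays of the same label stood apart in these data. Over all genes Pearson's r was 0.740 between the arrays labelled allyl alcohol and 0.757 between those labelled untreated, whereas allyl alcohol replicate 1 against untreated replicate 2 had 0.991 and allyl alcohol replicate 2 against untreated replicate 1 had 0.996. These are descriptions across genes, which are not independent replicates and share the array and its normalization. The labels of the arrays are therefore in doubt, and with them the meaning of every difference between labels, including the absence of calls. Nothing in the sources used here settles this. Samples are named by their labels throughout, and each direction is that of the labels. All 6 markers of mating type a were above background on every array, and their median log2 signal was 10.03 and 12.69 on allyl alcohol replicates 1 and 2, and 12.74 and 10.09 on untreated replicates 1 and 2. The 4 markers of mating type alpha, which define the opposite mating type, were also above background on every array, as were 5309 of all 5449 genes. Among them SAG1, the alpha-agglutinin gene, had 12.05 and 9.57 on allyl alcohol replicates 1 and 2. On untreated replicates 1 and 2 it had 9.74 and 11.995, the reverse order of the mating type a medians. The log2 differences of allyl alcohol replicate 1 minus 2 and untreated replicate 2 minus 1 were smaller for the other alpha markers. MF(ALPHA)1 had 0.82 and 0.79 and MF(ALPHA)2 had 0.82 and 0.57, the order of SAG1. STE3 had -0.45 and -0.42, the order of the a medians. Among the a markers ASG7 changed sign, with 0.22 and -0.24.

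The 46 genes followed the same array pattern. Their median absolute log2 difference was 0.17 between allyl alcohol replicate 1 and untreated replicate 2 and 0.09 between allyl alcohol replicate 2 and untreated replicate 1, and 0 of the 46 were 2-fold apart in either pair. It was 0.81 between the allyl alcohol arrays, where 18 were at least 2-fold apart (40.8% of all genes were), and 0.74 between the untreated arrays, where 17 were (38.0% of all genes). Same-numbered arrays of different labels were as far apart, with medians of 0.74 for replicate 1 and 0.75 for replicate 2.

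Background on an array was the 95th percentile of the 1746 probe sets that carry names of genes other than those of S. cerevisiae. This limit lay at 5.33 and 5.64 on allyl alcohol replicates 1 and 2, and at 5.58 and 5.28 on untreated replicates 1 and 2. Of the 46 genes, 45 were above it on every array, as were 5309 of all 5449 genes. SPC24, an Ndc80 complex subunit, had 4.99 and 5.18 on allyl alcohol replicates 1 and 2, and 5.25 and 5.77 on untreated replicates 1 and 2. It was above background on untreated replicate 2 only, so no difference is given for it. CTF13, a CBF3 subunit, was the next dimmest probe set, and its lowest signal was 5.83 on allyl alcohol replicate 2. The brightest probe sets were those of MAD2, SKP1 and DAD1. Signals of different probe sets do not rank transcripts, because probes differ in how they bind.

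By label, no gene of the 46 passed the test between allyl alcohol and untreated cultures. In limma, 0 had an adjusted p under 0.05, which was also 0% of all genes, and 0 had an unadjusted p under 0.05. The smallest unadjusted p among them, from limma, was 0.304, for NUF2. The median log2 difference, allyl alcohol minus untreated, was -0.04 over the 46 genes and -0.02 over all genes. Of the 45 genes above background, 41 had group means within 0.25 of each other on the log2 scale, yet the median half-width of the 95% interval was 1.46. Differences of about 2-fold were therefore not detectable for most of these genes with 2 arrays in each group. Without allyl alcohol replicate 1 the median was -0.28, without untreated replicate 1 it was -0.24, without allyl alcohol replicate 2 it was 0.11, and without untreated replicate 2 it was 0.05.

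**Figure D1:**
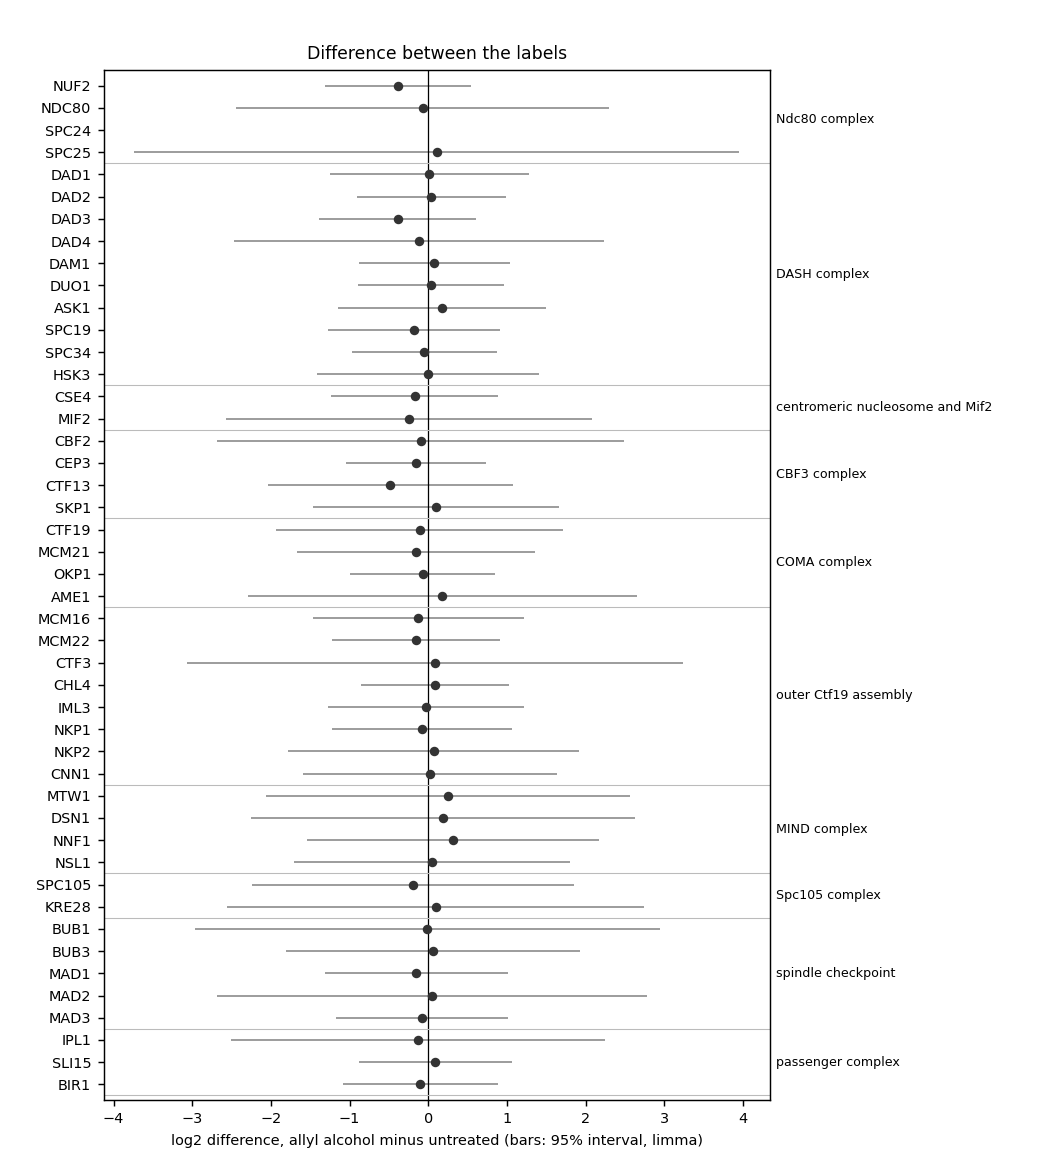
Log2 difference, allyl alcohol minus untreated (horizontal axis), for 45 of the 46 genes by complex, with points at the difference of group means and bars for limma's 95% interval. Every interval includes 0, and the widest belong to SPC25 and CTF3. SPC24 is left blank because it was mostly below background.

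In the deposited values the groups did not overlap for 3 of the 45 genes above background, NUF2, DAD3 and CEP3, each lower in allyl alcohol. With the genes quantile normalized anew, the groups of NUF2 and DAD3 overlapped, and those of CEP3 did not. Among all genes 5.23% had groups that did not overlap, 3.34% lower in allyl alcohol and 1.89% higher. NUF2, which forms the microtubule-binding end of the Ndc80 complex with Ndc80, had 7.61 and 7.41 on allyl alcohol replicates 1 and 2, and 7.96 and 7.83 on untreated replicates 1 and 2. The log2 difference was -0.38 with a standard error of 0.32 and an adjusted p of 1 in limma. In the deposited values arrays of the same label lay close together for NUF2, and both allyl alcohol arrays were below both untreated arrays. With the genes quantile normalized anew, its label difference was -0.29. Allyl alcohol replicate 1 minus 2 was then -0.36 and untreated replicate 2 minus 1 was -0.52, so neither closeness nor separation held.

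DAD3, a DASH subunit, had 7.57 and 7.996 on allyl alcohol replicates 1 and 2, and 8.20 and 8.15 on untreated replicates 1 and 2. Its log2 difference was -0.39 with a standard error of 0.35 and an adjusted p of 1 in limma, and allyl alcohol replicate 1 was the low array. With the genes quantile normalized anew, the label difference of DAD3 was -0.42. Allyl alcohol replicate 1 minus 2 was then -0.86 and untreated replicate 2 minus 1 was -0.26, and the groups overlapped. CEP3, the zinc-cluster subunit of CBF3, had 9.33 and 9.38 on allyl alcohol replicates 1 and 2, and 9.49 and 9.54 on untreated replicates 1 and 2. Arrays of the same label were nearly equal for CEP3, and the label difference of -0.16 (95% interval -1.05 to 0.74) had an adjusted p of 1 in limma. None of the 3 passed the test. The signals of SPC24 did not overlap between labels either, but they lay mostly below background and give no direction.

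The most negative and most positive label differences belonged to genes whose groups overlapped. CTF13, the F-box subunit of CBF3, averaged 6.36 ± 0.75 in allyl alcohol and 6.85 ± 0.41 in untreated cultures (SD, n = 2 each), a log2 difference of -0.48 with an interval of -2.04 to 1.07. NNF1, a MIND subunit, averaged 8.47 ± 0.68 in allyl alcohol and 8.16 ± 0.84 in untreated cultures (SD, n = 2 each), a log2 difference of 0.31. MTW1, another MIND subunit, averaged 8.80 ± 1.25 in allyl alcohol and 8.55 ± 0.69 in untreated cultures (SD, n = 2 each). All 3 had an adjusted p of 1 in limma.

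For part of the members each label joined a high and a low array, while others, such as CEP3 and OKP1, were nearly level. Such differences set 1 array against another, so no test is given for them. They are written as allyl alcohol replicate 1 minus replicate 2 and as untreated replicate 2 minus replicate 1, an order chosen from the data. Of the 46 genes, 27 (58.7%) were positive in both differences, 15 (32.6%) were negative in both and 4 (8.70%) changed sign. SPC24, mostly below background, is counted among the last. Of all genes 47.4% were positive in both, 46.2% were negative in both and 6.37% changed sign. With the genes quantile normalized anew, fewer of the 46 were positive in both and more were negative in both, so the lean of the 46 genes towards positive differences was smaller. DUO1, CHL4 and SLI15 then changed sign, and CTF13, NUF2 and SPC24 were negative in both. The 2 differences correlated at 0.955 across the 46 genes, against 0.973 across all genes, and the points of each share the same arrays and normalization. In a whole culture, a change in the share of cells at a stage of the cycle and a change in mRNA per cell cannot be told apart.

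At least 2-fold in both labels, 11 of the 46 genes (23.9%) stood higher on allyl alcohol replicate 1 and untreated replicate 2, against 18.6% of all genes. In the same way 4 (8.70%) stood lower, against 15.8% of all genes. In either direction the share was 32.6% of the 46 genes and 34.4% of all genes, so the set as a whole was near the background. With the genes quantile normalized anew, the split of 11 higher and 4 lower became 10 higher and 7 lower. The median of the differences was 0.30 inside allyl alcohol and 0.29 inside untreated for the 46 genes, and -0.00106 inside allyl alcohol and 0.04 inside untreated for all genes. After quantile normalization anew these medians were 0.29 and 0.15 for the 46 genes, and -0.06 and -0.03 for all genes.

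**Figure D2:**
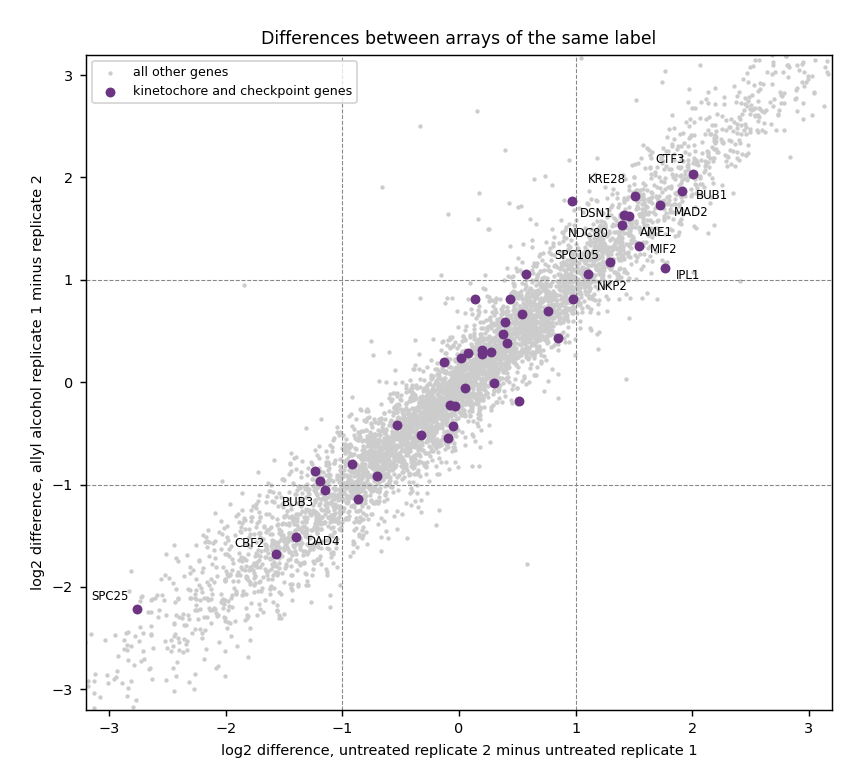
Log2 difference of allyl alcohol replicate 1 minus replicate 2 (vertical axis) against untreated replicate 2 minus replicate 1 (horizontal axis), with the 46 genes in purple and all other genes in grey, and dashed lines at 2-fold. The 15 named genes lie beyond the lines in both labels, 11 at upper right and 4 at lower left, and the axes stop short of the most extreme grey points.

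Other measures moved with these differences. For RNA spiked in at labelling, the 36 poly-A control probe sets had median log2 differences of 1.14 inside allyl alcohol and 0.88 inside untreated in the same order, and the 9 hybridisation controls had 0.14 and 0.20. The 6 mating type a markers had medians of -2.30 inside allyl alcohol and -2.30 inside untreated, and the 4 mating type alpha markers had 0.82 and 0.68. Their part in the differences of the kinetochore genes was not tested.

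At the centromere itself the members went different ways. CSE4, the histone H3 variant of the centromeric nucleosome, had 8.46 and 9.01 on allyl alcohol replicates 1 and 2, and 8.96 and 8.87 on untreated replicates 1 and 2. These arrays were close apart from the lower allyl alcohol replicate 1, and the groups overlapped. MIF2, the CENP-C protein that binds this nucleosome, had 10.18 and 8.85 on allyl alcohol replicates 1 and 2, and 8.99 and 10.53 on untreated replicates 1 and 2. Allyl alcohol replicate 1 was high and replicate 2 low, while untreated replicate 2 was high and replicate 1 low, a separation of 2.51-fold inside allyl alcohol and 2.92-fold inside untreated.

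Within CBF3, the complex that recognises centromeric DNA, CBF2 (Ndc10) had 7.28 and 8.96 on allyl alcohol replicates 1 and 2, and 8.998 and 7.43 on untreated replicates 1 and 2. The high and low arrays were the reverse of those for MIF2, with log2 differences of -1.68 inside allyl alcohol and -1.57 inside untreated. SKP1, which is also a core subunit of SCF ubiquitin ligases, had 11.07 and 11.87 on allyl alcohol replicates 1 and 2, and 11.83 and 10.91 on untreated replicates 1 and 2. It had the same order as CBF2 but stayed under 2-fold in both labels. CTF13 had 6.89 and 5.83 on allyl alcohol replicates 1 and 2, and 6.56 and 7.13 on untreated replicates 1 and 2, the opposite order to CBF2. With the genes quantile normalized anew, CTF13 had log2 differences of -0.19 inside allyl alcohol and -0.35 inside untreated, the same sign as CBF2. CEP3, described above, was level. In the deposited values the 4 subunits of this complex thus covered all of these patterns, but the order of CTF13 depended on the normalization.

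The COMA complex, a link between the centromere and the outer layers, was split in the same manner. AME1 had 10.33 and 8.71 on allyl alcohol replicates 1 and 2, and 8.61 and 10.07 on untreated replicates 1 and 2, which is 3.08-fold apart inside allyl alcohol and 2.75-fold inside untreated. OKP1, whose protein pairs with Ame1, had differences of only -0.23 inside allyl alcohol and -0.04 inside untreated. CTF19 and MCM21, which form the other pair, were lower on the arrays where AME1 was higher. CTF19 had differences of -0.87 inside allyl alcohol and -1.23 inside untreated, and MCM21 had -0.91 and -0.71.

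Of the 8 outer members of the Ctf19 assembly, 7 were positive in both labels, against 47.4% of all genes, and NKP1 was negative in both, against 46.2%. With the genes quantile normalized anew, CHL4 had 0.17 inside allyl alcohol and -0.10 inside untreated. CTF3, the CENP-I protein, had 11.36 and 9.33 on allyl alcohol replicates 1 and 2, and 9.26 and 11.27 on untreated replicates 1 and 2. It had the widest positive separation of the 46 genes, 4.10-fold inside allyl alcohol and 4.03-fold inside untreated, and yet its label means differed by only 0.08 on the log2 scale with a standard error of 1.10. MCM16 and MCM22, whose proteins form a complex with Ctf3, had smaller differences of 0.43 and 0.38 inside allyl alcohol and of 0.85 and 0.41 inside untreated.

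NKP2 had 9.44 and 8.38 on allyl alcohol replicates 1 and 2, and 8.29 and 9.40 on untreated replicates 1 and 2. It was just inside the 2-fold threshold in both labels, with log2 differences of 1.06 inside allyl alcohol and 1.11 inside untreated, whereas its partner NKP1 had -0.42 and -0.53. CNN1, the CENP-T protein that gives the Ndc80 complex a separate anchor, lay just outside, with 0.82 inside allyl alcohol and 0.98 inside untreated. CHL4 and IML3, which form the CENP-N and CENP-L pair, had 0.28 and 0.81 inside allyl alcohol and 0.08 and 0.14 inside untreated.

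The MIND complex, the platform on which the outer kinetochore assembles, had 2 members on each side, and the split ran through both of its protein pairs. DSN1 had 10.43 and 8.80 on allyl alcohol replicates 1 and 2, and 8.73 and 10.14 on untreated replicates 1 and 2, while its partner NSL1 had 7.98 and 9.12 in allyl alcohol and 8.94 and 8.07 in untreated. DSN1 was high on the arrays where NSL1 was low, by log2 differences of 1.63 and -1.14 inside allyl alcohol and of 1.41 and -0.87 inside untreated. MTW1 had 9.68 and 7.92 on allyl alcohol replicates 1 and 2, and 8.07 and 9.04 on untreated replicates 1 and 2, and its partner NNF1 had 7.98 and 8.95 in allyl alcohol and 8.75 and 7.56 in untreated. MTW1 fell just short of 2-fold inside untreated, at 0.97, and NNF1 just short of it inside allyl alcohol, at -0.97.

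Both genes of the Spc105 complex, the platform for checkpoint proteins, were positive in both labels. SPC105, the KNL1 scaffold, had 10.90 and 9.73 on allyl alcohol replicates 1 and 2, and 9.86 and 11.16 on untreated replicates 1 and 2. KRE28, its binding partner, had 9.52 and 7.71 on allyl alcohol replicates 1 and 2, and 7.77 and 9.27 on untreated replicates 1 and 2. Allyl alcohol replicate 1 and untreated replicate 2 were the high arrays for both, and the separation was 2.25-fold and 2.45-fold for SPC105 and 3.53-fold and 2.84-fold for KRE28, inside allyl alcohol and inside untreated in that order.

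The Ndc80 complex, the main microtubule receptor, held the widest negative separation of the 46 genes. SPC25, part of the end that anchors the complex to the inner kinetochore, had 7.92 and 10.14 on allyl alcohol replicates 1 and 2, and 10.30 and 7.55 on untreated replicates 1 and 2. Allyl alcohol replicate 2 and untreated replicate 1 were high, by 4.66-fold inside allyl alcohol and 6.76-fold inside untreated, while the label means were 9.03 ± 1.57 in allyl alcohol and 8.93 ± 1.95 in untreated cultures (SD, n = 2 each). NDC80 had 8.35 and 6.81 on allyl alcohol replicates 1 and 2, and 6.95 and 8.35 on untreated replicates 1 and 2, the opposite order to SPC25. NUF2 was level by comparison in the deposited values, with 0.20 inside allyl alcohol and -0.13 inside untreated. After quantile normalization anew it had -0.36 and -0.52.

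The DASH complex is a ring around the microtubule that tracks its shrinking end. Of its 10 members 0 stood higher by 2-fold in both labels and 1 stood lower, against 18.6% and 15.8% of all genes. DAD4 had 9.12 and 10.63 on allyl alcohol replicates 1 and 2, and 10.69 and 9.29 on untreated replicates 1 and 2, so allyl alcohol replicate 2 and untreated replicate 1 were high. Of the other members, ASK1 had the widest difference inside allyl alcohol, 0.81, and HSK3 the widest inside untreated, 0.77. DAM1, a target of the Ipl1 kinase, had 0.28 inside allyl alcohol and 0.19 inside untreated, and DUO1, DAD2, DAD3 and SPC34 lay between -0.42 and 0.30 in both labels.

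DAD1 had 10.78 and 10.12 on allyl alcohol replicates 1 and 2, and 10.17 and 10.71 on untreated replicates 1 and 2, a positive but smaller separation of 1.58-fold inside allyl alcohol and 1.45-fold inside untreated. SPC19 was negative, with log2 differences of -0.51 inside allyl alcohol and -0.33 inside untreated. The label differences of the 10 DASH genes ranged between -0.39 for DAD3 and 0.18 for ASK1, with a median of 0.000646.

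**Figure D3:**
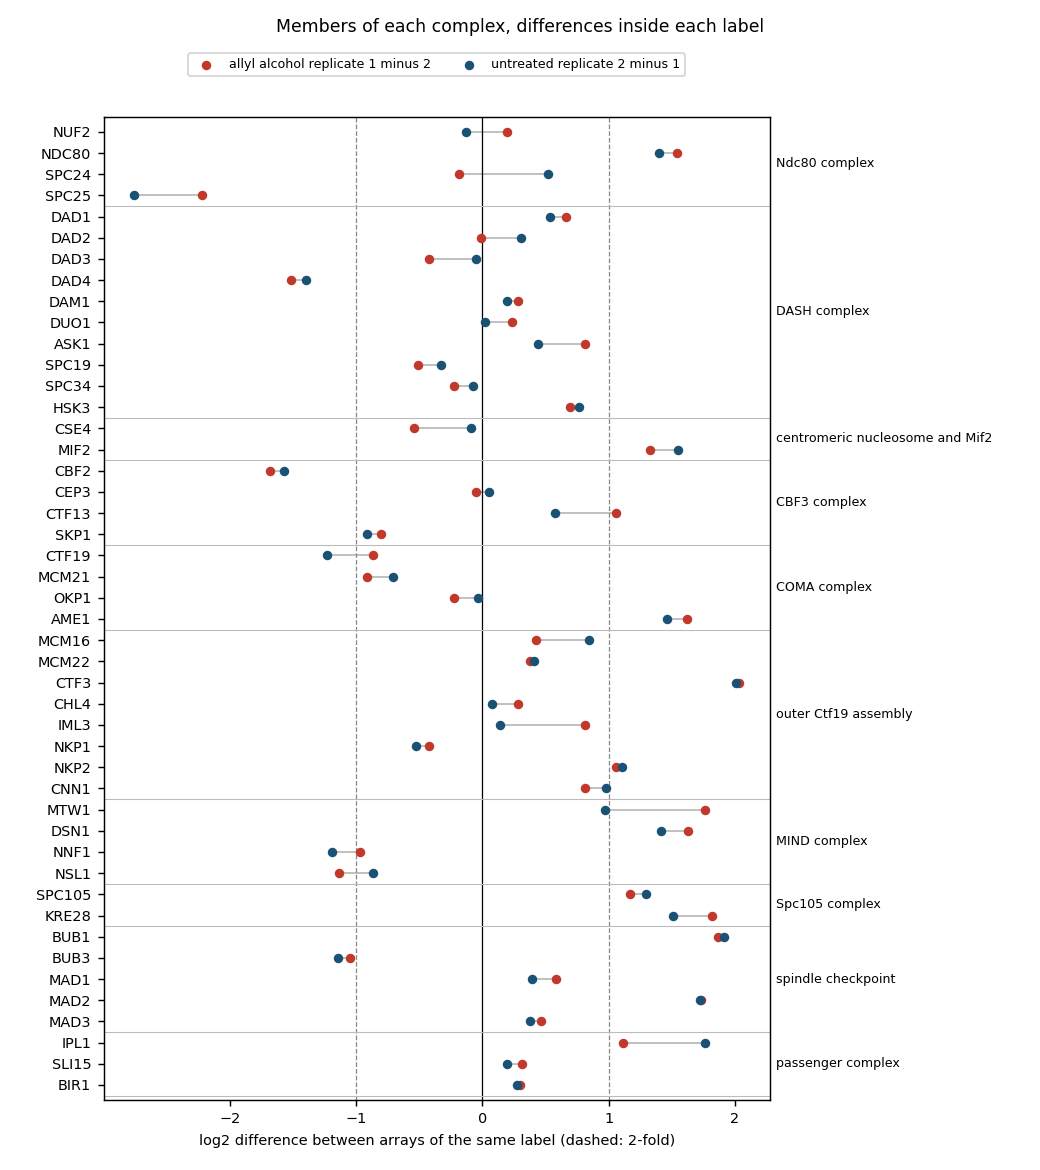
Log2 difference between the arrays of each label (horizontal axis) for the 46 genes by complex, in red for allyl alcohol replicate 1 minus 2 and in blue for untreated replicate 2 minus 1, with dashed lines at 2-fold. Some genes of the same group, such as DSN1 and NSL1, NDC80 and SPC25, or BUB1 and BUB3, lie on opposite sides of 0. Others, such as SPC105 and KRE28 or CTF19 and MCM21, lie on the same side.

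Among the spindle checkpoint genes 4 of 5 were positive in both labels, against 47.4% of all genes. BUB1, the checkpoint kinase, had 8.50 and 6.64 on allyl alcohol replicates 1 and 2, and 6.63 and 8.54 on untreated replicates 1 and 2. MAD2, whose protein binds and inhibits Cdc20, had 12.79 and 11.05 on allyl alcohol replicates 1 and 2, and 11.01 and 12.73 on untreated replicates 1 and 2. Both were high on allyl alcohol replicate 1 and untreated replicate 2, BUB1 by 3.64-fold and 3.76-fold and MAD2 by 3.32-fold and 3.30-fold inside allyl alcohol and inside untreated.

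BUB3, whose protein carries Bub1 to Spc105, went the other way, with 9.35 and 10.40 on allyl alcohol replicates 1 and 2, and 10.39 and 9.24 on untreated replicates 1 and 2. It was 2.07-fold lower on allyl alcohol replicate 1 than on replicate 2, and 2.21-fold lower on untreated replicate 2 than on replicate 1. MAD1, which recruits Mad2 to kinetochores, and MAD3, the partner of Bub3 and Mad2 in the inhibitory complex, had 0.58 and 0.47 inside allyl alcohol and 0.40 and 0.38 inside untreated. By label the 5 genes differed by no more than 0.16 on the log2 scale, with an adjusted p of 1 in limma for each.

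In the passenger complex IPL1, the Aurora kinase, had 8.60 and 7.49 on allyl alcohol replicates 1 and 2, and 7.30 and 9.06 on untreated replicates 1 and 2. The separation was 2.16-fold inside allyl alcohol and 3.40-fold inside untreated, with the same arrays high as for BUB1 and MAD2. When the genes were quantile normalized anew, IPL1 had log2 differences of 0.89 inside allyl alcohol and 1.51 inside untreated, so it no longer reached 2-fold inside allyl alcohol, and CTF19, NNF1 and NSL1 then stood 2-fold lower in both labels. SLI15, the INCENP protein that activates Ipl1, and BIR1, the survivin protein that targets it, had differences of 0.31 and 0.29 inside allyl alcohol and of 0.20 and 0.27 inside untreated.

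Genes that act with the kinetochore were read from lists of related function. Of 18 other kinetochore and centromere factors measured, 5 stood higher and 1 lower by 2-fold in both labels, against 18.6% and 15.8% of all genes. PSH1, the ubiquitin ligase that removes misplaced Cse4, was higher by log2 differences of 1.57 inside allyl alcohol and 1.58 inside untreated. BIK1, a microtubule plus-end protein, was higher by log2 differences of 2.19 inside allyl alcohol and 1.56 inside untreated. Of 28 tubulin, spindle pole body and motor genes, 8 stood higher and 0 lower, among them SPC29, a spindle pole body subunit, with 2.90 inside allyl alcohol and 2.53 inside untreated, and ASE1, the spindle midzone protein, with 2.59 and 2.40.

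Of 17 genes for the anaphase-promoting complex, securin and separase, 4 (23.5%) stood higher and 2 (11.8%) lower, against 18.6% and 15.8% of all genes. MND2 and CDC27, both subunits of the complex, were higher by log2 differences of 2.73 and 2.15 inside allyl alcohol and of 2.78 and 2.04 inside untreated, while CDC20, the checkpoint's target, was lower by log2 differences of -1.34 inside allyl alcohol and -1.21 inside untreated. Of 14 cohesin and condensin genes, 3 (21.4%) stood higher and 1 (7.14%) lower, against the same shares of all genes. The higher ones included ECO1, the cohesin acetyltransferase, with 2.47 inside allyl alcohol and 2.50 inside untreated, and SCC2, the cohesin loader, with 1.60 and 1.84. The lower one was MCD1, the cleavable cohesin subunit. In the cell cycle lists more genes stood lower than higher. Of 15 G1/S genes 2 (13.3%) stood higher and 5 (33.3%) lower, and of 14 G2/M genes 0 stood higher and 7 (50.0%) lower. The shares of all genes were 18.6% and 15.8%. The G1 cyclin CLN2 and the cyclin PCL1 had log2 differences of -3.25 and -3.07 inside allyl alcohol and of -3.37 and -3.27 inside untreated. The mitotic cyclins CLB1 and CLB2 had -3.42 and -3.39 inside allyl alcohol and -3.37 and -2.82 inside untreated. CDC20 and MCD1 were named after their values were seen. No gene of these lists was called by label in limma, and 0 had an unadjusted p under 0.05.

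**Figure D4:**
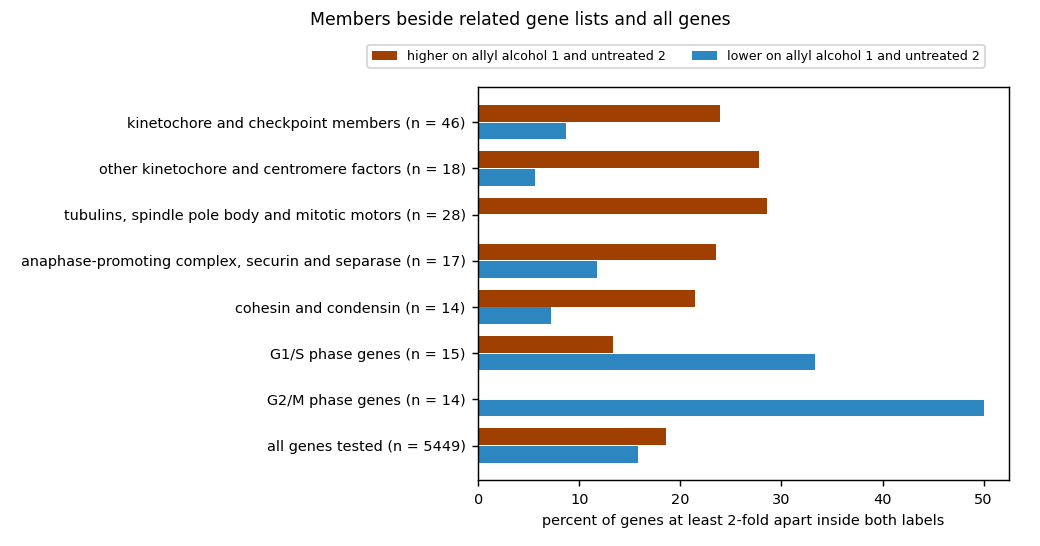
Percent of genes that were 2-fold or more apart in both labels (horizontal axis), higher (brown) or lower (blue) on allyl alcohol replicate 1 and untreated replicate 2, for the 46 genes, 6 related lists and all genes. The 46 genes had 23.9% higher and 8.70% lower, against 18.6% and 15.8% of all genes, and the G2/M list had 0% higher and 50.0% lower.

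Chromosomal neighbours of the members were read from the RefSeq gene order of assembly R64, taking the strand from the systematic names. Of the 15 genes that were 2-fold apart in both labels, 8 had an adjacent protein-coding gene on the opposite strand at their 5' side that was measured here. For 3 of these 8 (37.5%) the neighbour was also 2-fold apart in the same direction, against 24.2% of the 851 such genes over the whole array, a difference that rests on few genes. BET4, next to MAD2, had log2 differences of 1.98 inside allyl alcohol and 1.95 inside untreated, close to those of MAD2. ISC1, next to SPC25, had -1.68 and -1.99, and TPO2, next to CBF2, had -1.29 and -1.38.

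A neighbour's separation was not always shared. MET32, a regulator of sulfur metabolism next to CHL4, had log2 differences of 6.16 inside allyl alcohol and 5.27 inside untreated, while CHL4 had 8.48 and 8.20 on allyl alcohol replicates 1 and 2, and 8.22 and 8.29 on untreated replicates 1 and 2. CHL4 was thus nearly level on the arrays where its neighbour was far apart. The neighbours named here were chosen after their values were seen.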

How the data were processed

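The deposited values are log2 RMA signals, 1 for each probe set and array. Per the submitters' processing notes, the authors used Affymetrix Expression Console and RMA; neither versions nor settings are stated there. RMA brings all arrays to a common distribution, which can hide a general rise or fall of mRNA. All 10928 probe sets lay between 2.78 and 14.75. The platform annotation gave 1 gene for 7244 of them, several for 1 and none for 3683; 5498 matched RefSeq assembly R64 by gene identifier, giving 5449 genes, each by its brightest probe set. Limma 3.58.1 in R 4.3.3 (lmFit, eBayes, no block, two-sided) was fitted to all genes, with Benjamini-Hochberg adjustment at 0.05, and was tested on simulated data. P-values rest on the spread between 2 arrays in each group, which eBayes draws towards the spread of all genes, and the number of arrays limits the precision. A gene whose arrays lie close together therefore still gets a wide interval. CEP3 had an SD of 0.04 in each group and a standard error of 0.31 in limma. Replicate numbers were not used to pair the arrays in the main fit. Arrays with the same number deviated from their group means in opposite ways (correlation -0.973). This restates the array pattern above and, with the labels in doubt, cannot decide whether the experiments were paired by number.

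The members and lists were chosen with earlier results of these data known. Values for each array were given for genes whose groups did not overlap, for genes 2-fold apart inside both labels, for genes not above background on every array, and for the 3 brightest and 3 dimmest probe sets; CSE4, CHL4, NSL1, MTW1 and NNF1 were added after their values were seen. In each related list the 2 genes with the largest differences inside both labels were named. WIP1 was listed but not analysed here, and 1 other listed item is not reported here. Alternatives covered blocks, leaving out each array, normalization, the background and the fold threshold.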

Additional observations from a re-analysis of the deposited data

How the results depend on the processing

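The crossed block and the counts inside a single label were chosen after seeing the data. Limma called 0 of all genes and 0 of the 46 genes under all settings run, and 0 genes had an unadjusted p under 0.05 except with the crossed block. A replicate block left 0 genes called, with 0 at an unadjusted p under 0.05. With the block that pairs allyl alcohol replicate 1 with untreated replicate 2, limma called 0 genes, and its smallest adjusted p was 0.939. Under that block 188 of 5449 genes had an unadjusted p under 0.05 in limma, and 4 of the 46 did. The block was taken from the array pattern itself, so these counts are no evidence of a label difference. The median label difference of the 46 genes was -0.28 at the lowest and 0.11 at the highest when single arrays were left out, and -0.00334 after quantile normalization anew. With single arrays left out, the label difference ranged between -1.01 and 0.048 for CTF13, -0.63 and 1.13 for MTW1, -0.28 and 0.91 for NNF1, -0.82 and 0.91 for MAD2, and -1.27 and 1.49 for SPC25; each of these 5 turned its sign, which leaving an array out of a pair that stands far apart does by construction. NUF2, DAD3 and CEP3 kept a negative sign in all settings run. In the deposited values their groups did not overlap, so leaving out an array could not turn the sign, and a block leaves the difference unchanged. Under those settings the kept sign is also by construction. After quantile normalization anew the signs were kept, but the groups of NUF2 and DAD3 overlapped. The 15 genes that were 2-fold or more apart in both labels became 23 at a 1.5-fold threshold, which admits more genes by construction, 17 after quantile normalization anew with 14 shared, and 16 with arrays centred on their medians. Inside untreated alone they were 17 and inside allyl alcohol alone 18. With the 99th percentile as background, 44 of the 46 genes were above it on every array, against 45.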
